A study of Mus musculus with 93 samples.

Results

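The 9 genes described here encode liver-made proteins that build blood clots, stop their growth or dissolve them. They were chosen by name, with earlier results of these data known. They are fibrinogen alpha, beta and gamma chain (Fga, Fgb, Fgg), prothrombin (F2), factors VII, IX and XI (F7, F9, F11), antithrombin (Serpinc1) and plasminogen (Plg). All 9 were found among the 53465 genes of the count table, and all 9 were among the 19110 genes that passed a filter on low counts. Liver RNA came from 93 male mice of 7 inbred strains, the domesticated C57BL/6J, DBA/2J, A/J and 129S1/SvImJ and the wild-derived WSB/EiJ, CAST/EiJ and PWK/PhJ. Every mouse was housed at thermoneutrality, which is 30°C, and from 7 weeks of age ate either a Western-style diet with 40% of its calories from fat (WD) or a matched control diet with 10% (CD). The 14 groups of a strain on a diet held 5 to 8 mice each. No group carried an engineered allele or a drug, and the mice of each strain came from 2 or 3 cohorts.

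Fibrinogen is a soluble protein built from pairs of 3 chains, and thrombin, the active form of prothrombin, cuts it so that it polymerizes into fibrin. Thrombin is made at the end of a cascade of proteases in which factor VII works with tissue factor to start the reaction, factor IX helps to amplify it and factor XI feeds factor IX. Prothrombin and factors VII and IX need vitamin K for a modification that lets them bind membranes. Antithrombin is a serpin, a suicide inhibitor, that inactivates thrombin and several of the upstream proteases. Plasminogen is the precursor of plasmin, the protease that cuts fibrin. Hepatocytes make and secrete these proteins, and fibrinogen is also a classical acute phase protein, whose transcription rises in response to interleukin-6.

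The 3 fibrinogen genes lie together on mouse chromosome 3, and their upstream sequences are shown because the transcripts of these chains moved together from mouse to mouse in the results that follow. In the GENCODE annotation of GRCm38, Fgg occupies chr3:83007724-83015049 on the plus strand, Fga chr3:83026076-83033627 on the plus strand and Fgb chr3:83040141-83049863 on the minus strand. The sequences were taken from RefSeq on GRCm38.p6 and read 5′ to 3′ towards the gene, with at most 250 bases shown and none from the annotated transcripts. They cover chr3:83025903-83026075 for Fga, chr3:83049864-83050113 for Fgb and chr3:83007474-83007723 for Fgg. Capitals mark matches on either strand to the letters TTGCNNAA (a C/EBP motif), CTGGGA (the core of the interleukin-6 response element) or GTTAAT (the core of an HNF1 site).
Fga: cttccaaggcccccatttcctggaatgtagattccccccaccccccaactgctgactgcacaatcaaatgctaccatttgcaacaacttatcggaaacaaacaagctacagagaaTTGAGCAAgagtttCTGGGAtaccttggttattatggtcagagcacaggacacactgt
Fgb: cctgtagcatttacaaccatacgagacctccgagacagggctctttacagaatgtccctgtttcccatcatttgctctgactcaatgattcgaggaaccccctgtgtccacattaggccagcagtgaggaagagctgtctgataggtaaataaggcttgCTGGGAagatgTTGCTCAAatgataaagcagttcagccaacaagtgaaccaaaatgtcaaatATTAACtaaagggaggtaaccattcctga
Fgg: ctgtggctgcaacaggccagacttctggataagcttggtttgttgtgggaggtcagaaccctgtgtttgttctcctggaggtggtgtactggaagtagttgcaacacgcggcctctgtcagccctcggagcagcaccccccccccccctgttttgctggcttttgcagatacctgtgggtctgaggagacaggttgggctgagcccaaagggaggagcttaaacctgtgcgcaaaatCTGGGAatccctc
In the 250 bases before the RefSeq start sites of Fga and Fgb all 3 motifs were matched, and in those of Fgg only CTGGGA was. The Fga match to GTTAAT, 43 bases before the RefSeq start, lies past the end of the printed stretch because GENCODE places the start of that gene further upstream. A window of this length held CTGGGA in 27.0% of 32851 RefSeq promoters, TTGCNNAA in 9.56% and GTTAAT in 6.43%. Of the 8 genes described here with an entry (all but Plg), 4 held CTGGGA (F9, Fga, Fgb, Fgg), 4 held TTGCNNAA (F11, F9, Fga, Fgb) and 2 held GTTAAT (Fga, Fgb). The matches are descriptions of these letters and the data hold no measure of factor binding.

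Sequencing gave 40020424 to 49894856 reads on genes per mouse, and the lowest raw count of any of the 9 genes in any mouse was 1748, for F11. Levels are given as CPM, the count of a gene scaled to a common library total, after TMM normalization, which scales each library so that most genes do not shift. Reads of every strain were mapped to the C57BL/6J genome. The unmapped share was 1.66% to 3.87% in C57BL/6J and reached 8.93% to 14.8% in CAST/EiJ, with the part of this difference in the strain levels not tested. Exons of Fgg, Serpinc1 and Plg overlap a gene on the opposite strand, Gm30097 over 115 bases, Zbtb37 over 2942 and Slc22a3 over 420. The sources do not say whether counting used the strand, so reads in these stretches could come from either gene. The hepatocyte markers that were listed, 17 genes such as Alb (albumin), were all measured, and their summed level ranged from 138550 to 165360 CPM in C57BL/6J on CD.

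The genes spanned a wide range of levels, with the fibrinogen chains at the top and factors IX, VII and XI at the bottom. Levels were compared between genes only after division by the length of the principal transcript. On CD, as the mean of the 7 strain means, Fga stood at 2792 CPM per kb, Fgg at 2306 and Fgb at 1482. Plg followed at 1204 CPM per kb, F2 at 942 and Serpinc1 at 513. The other proteases were much lower, with F9 at 96.7 CPM per kb, F7 at 53.8 and F11 at 46.0. Together the 9 genes took 1.77% to 2.89% of all gene reads as group means.

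**Figure D1:**
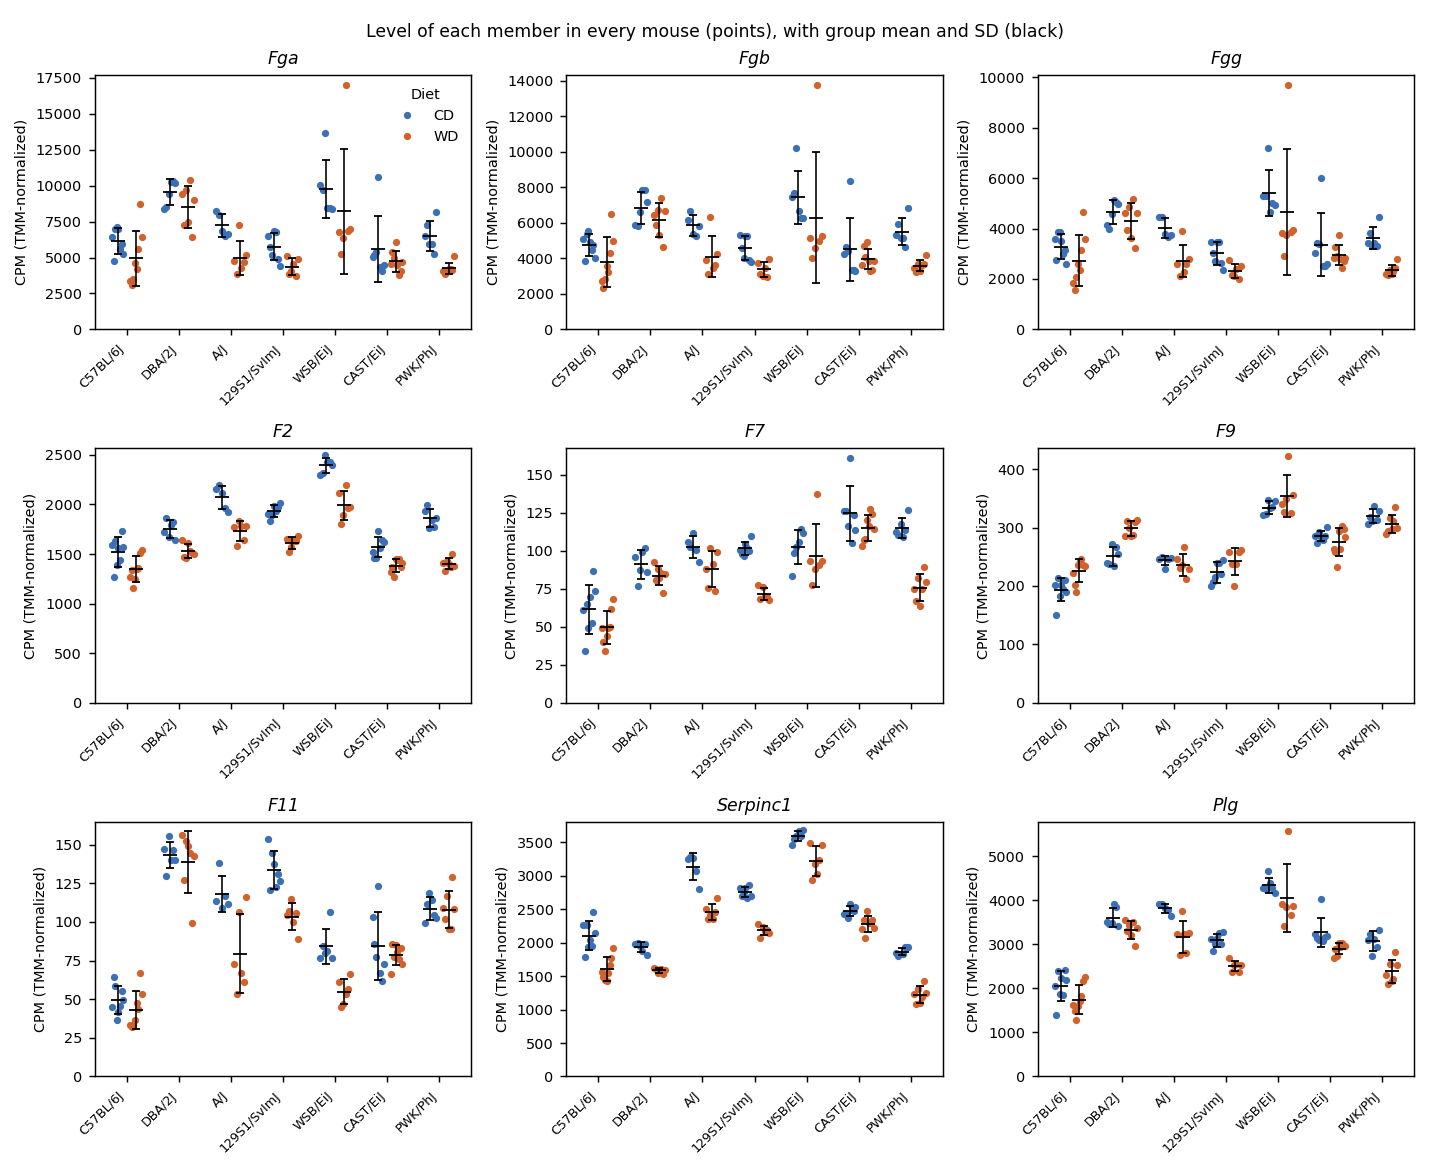
Level of each of the 9 genes in CPM (TMM-normalized, axes from 0) in each of 93 mice, by strain and diet (blue CD, orange WD), with group mean and SD in black. The WD points of F2 and Serpinc1 lie below every CD point in 5 strains for F2 and in 4 for Serpinc1, and single mice of WSB/EiJ and CAST/EiJ stand far above their groups in the fibrinogen panels.

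The transcripts were mostly lower on WD. In 59 of the 63 gene and strain pairs the estimate was below 0, although that of F11 in PWK/PhJ, at -0.01 on the log2 scale, turned to 0.016 with upper-quartile scaling. Of the 63 pairs, 27 were lower on WD at an adjusted p below 0.05, 2 were higher and 34 did not pass (limma-voom, Benjamini-Hochberg adjustment over 19110 genes in each strain). PWK/PhJ had 7 of 9 genes lower, where 14.5% of all genes were lower. 129S1/SvImJ had 6 lower against 13.6%, A/J 5 against 4.64%, C57BL/6J 4 against 11.9%, DBA/2J 2 against 7.77%, WSB/EiJ 2 against 3.97% and CAST/EiJ 1 against 9.73%. Without any 1 of 4 A/J mice (replicate 1 or 2 on CD, replicate 2 or 4 on WD) the A/J count was 3, where 3.08% to 3.44% of all genes were lower. The C57BL/6J count of 5 in either direction was 3 with cohort in the model (24.8% of all genes) and 1 when each strain was fitted alone (13.4%). The 2 pairs that were higher were F9 in C57BL/6J and F9 in DBA/2J, where 14.3% and 10.2% of all genes were higher. None of the 9 was higher in the other strains, where 4.39% (A/J), 4.97% (WSB/EiJ), 9.77% (CAST/EiJ), 14.5% (129S1/SvImJ) and 15.1% (PWK/PhJ) of all genes were. The median log2 fold change of the 9 genes was -0.13 in DBA/2J and CAST/EiJ, -0.27 in WSB/EiJ, -0.29 in C57BL/6J, -0.35 in A/J, -0.37 in 129S1/SvImJ and -0.60 in PWK/PhJ, while the median of all genes lay between -0.011 and 0.017 in the 7 strains. Of the 29 pairs that passed, 21 also passed under each processing alternative planned, and those that did not were F2, F7, F9 and Plg in C57BL/6J, Fga and Fgg in A/J, and Fgb and F11 in 129S1/SvImJ. In bulk liver, fewer hepatocytes and less RNA per hepatocyte cannot be told apart. The hepatocyte marker list moved in the same direction, with 11 of 17 markers lower in PWK/PhJ, 9 in 129S1/SvImJ, 8 in A/J and in C57BL/6J (where 1 was higher), 6 in WSB/EiJ, 5 in CAST/EiJ and 4 in DBA/2J, and its part in the result was not tested.

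Averaged over the 7 strains, each of the 9 genes passed the test of the diet effect, as did 51.6% of all genes, and 8 of the 9 were lower, as were 24.5% of all genes. The mean log2 fold change was -0.38 for Fga (SE 0.065), -0.38 for Fgb, -0.36 for Fgg, -0.32 for Serpinc1 (SE 0.020), -0.28 for F7, -0.28 for F11, -0.25 for F2 (SE 0.019) and -0.23 for Plg. F9 alone among the 9 was higher, by 0.071 (SE 0.023, adjusted p = 0.0065). The size of the diet effect differed between strains for Serpinc1 (F test, adjusted p = 3.1e-06), F9 (adjusted p = 0.0012), F11 (adjusted p = 0.011) and F7 (adjusted p = 0.024), which is 4 of 9 genes where 37.5% of all genes passed. The same test gave adjusted p = 0.065 for F2, 0.35 for Fgg, 0.40 for Plg, 0.46 for Fgb and 0.57 for Fga.

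**Figure D2:**
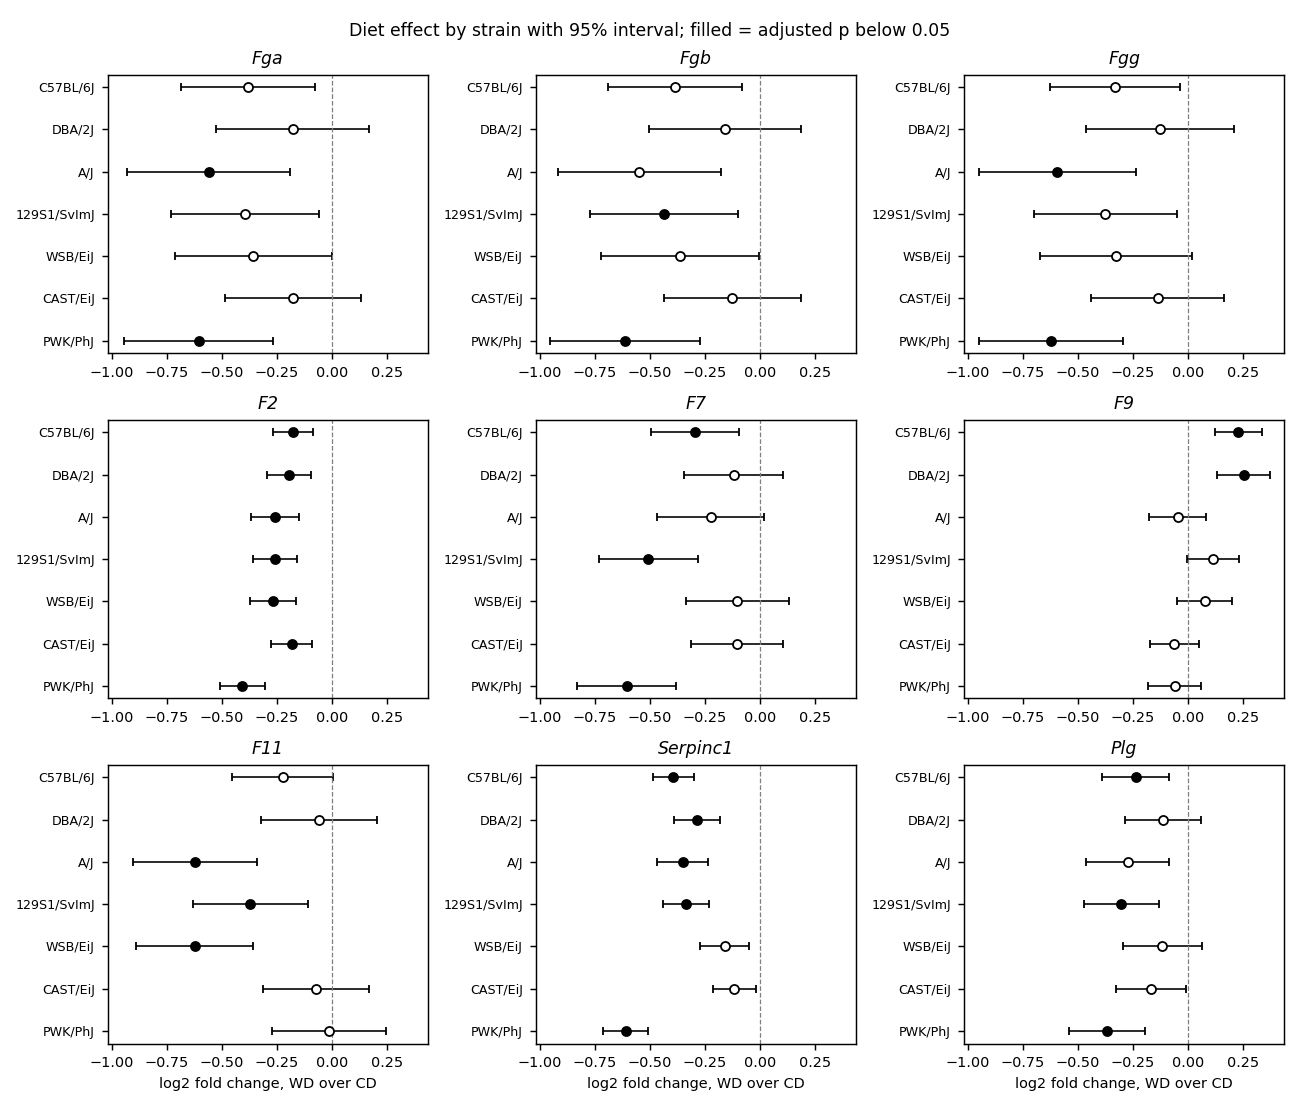
Log2 fold change of each gene, WD over CD, in each strain, with a normal-theory 95% interval (bars) and filled points where the adjusted p was below 0.05. The intervals of F2 all lie below 0, those of the fibrinogen chains are wider, and F9 in C57BL/6J and DBA/2J is the only gene with filled points above 0.

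Prothrombin fell in all 7 strains. F2 was lower on WD by 0.18 on the log2 scale in C57BL/6J and CAST/EiJ up to 0.41 in PWK/PhJ (SE 0.046 to 0.056). In PWK/PhJ it ran from 1765 through a median of 1855 to 1998 CPM on CD and from 1333 through 1398 to 1505 CPM on WD (log2 fold change -0.41, adjusted p = 1.1e-09). In A/J the 5 CD mice had 2152, 2191, 2117, 1966 and 1923 CPM, and the 6 WD mice ran from 1576 through 1774 to 1828 CPM (-0.26, adjusted p = 0.0010). No WD mouse reached the lowest CD mouse in either strain, nor in 129S1/SvImJ, WSB/EiJ or CAST/EiJ. Groups without overlap were found, in either direction, for 12.6% of all genes in PWK/PhJ, 8.08% in A/J, 16.4% in 129S1/SvImJ, 4.36% in WSB/EiJ and 2.23% in CAST/EiJ. In C57BL/6J the groups overlapped, at 1267 to 1736 CPM on CD and 1160 to 1538 CPM on WD.

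Antithrombin, the inhibitor, fell in 5 strains. Serpinc1 fell by 0.61 in PWK/PhJ (SE 0.053, adjusted p = 4.1e-16), by 0.39 in C57BL/6J, by 0.35 in A/J, by 0.34 in 129S1/SvImJ and by 0.29 in DBA/2J, all on the log2 scale. PWK/PhJ had the largest of these differences and the lowest level on either diet. Its mice had 1805 to 1930 CPM on CD (median 1839) and 1076 to 1429 CPM on WD (median 1226), with a gap between the groups. In WSB/EiJ the fold change was -0.16 (adjusted p = 0.062) and in CAST/EiJ -0.12 (adjusted p = 0.086). The groups of both strains overlapped, with 3465 to 3678 CPM on CD against 2935 to 3490 CPM on WD in WSB/EiJ.

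The proteases at the start of the cascade each showed a pattern of their own. F7, the partner of tissue factor, fell by 0.61 in PWK/PhJ (adjusted p = 1.9e-05), by 0.51 in 129S1/SvImJ (adjusted p = 0.00037) and by 0.29 in C57BL/6J (adjusted p = 0.024). The C57BL/6J groups overlapped widely, at 34.5 to 87.0 CPM on CD and 34.1 to 68.4 CPM on WD. In PWK/PhJ it ran from 109 through 113 to 127 CPM on CD and from 63.7 through 75.1 to 89.2 CPM on WD, without overlap. F11, which activates factor IX, was lower in 3 strains. It fell by 0.62 in A/J (adjusted p = 0.0021), by 0.62 in WSB/EiJ (adjusted p = 0.00074) and by 0.37 in 129S1/SvImJ (adjusted p = 0.029), and its value in PWK/PhJ was -0.01 with a SE of 0.13. In WSB/EiJ F11 ran from 76.4 through 80.6 to 106 CPM on CD and from 45.2 through 54.9 to 66.0 CPM on WD, so that the groups did not overlap. In PWK/PhJ the F11 medians were nearly equal, 108.06 CPM on CD and 108.1 CPM on WD.

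F9 was the exception in direction. It rose by 0.25 on the log2 scale in DBA/2J (SE 0.061, adjusted p = 0.0014) and by 0.23 in C57BL/6J (SE 0.054, adjusted p = 0.00069). In DBA/2J the mice ran from 234 through 247 to 271 CPM on CD and from 285 through 299 to 312 CPM on WD, and the groups did not overlap, as for 7.28% of all genes. In C57BL/6J they overlapped, at 151 to 214 CPM on CD (median 198) and 190 to 246 CPM on WD (median 235). The estimates in the other strains lay between -0.062 in CAST/EiJ and 0.11 in 129S1/SvImJ and did not pass. F9 and F11 also deviated almost independently of each other between mice of a group (Pearson r = 0.05 over 93 mice).

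The fibrinogen chains had large estimates and large errors. Fga fell by 0.60 in PWK/PhJ (SE 0.17, adjusted p = 0.0045) and by 0.56 in A/J (SE 0.19, adjusted p = 0.046). Fgb fell by 0.61 in PWK/PhJ (adjusted p = 0.0043) and by 0.44 in 129S1/SvImJ (adjusted p = 0.048), and Fgg fell by 0.62 in PWK/PhJ (adjusted p = 0.0024) and by 0.59 in A/J (adjusted p = 0.026). The 3 chains gave like estimates within a strain. In PWK/PhJ the 6 CD mice had 5278 to 8193 CPM of Fga (median 6207) and the 7 WD mice 3888 to 5114 CPM (median 4163), with no overlap. In A/J the CD mice had 8236, 7985, 6855, 6496 and 6662 CPM of Fga and the WD mice 3889 to 7230 CPM (median 4708), where the highest WD mouse lay within the CD range. In C57BL/6J the Fga estimate was -0.38 (adjusted p = 0.060), with 4734 to 7119 CPM on CD (median 6194) and 3064 to 8705 CPM on WD (median 4408). The WD mice of this strain spread below and above the CD range. In DBA/2J the estimate was -0.18 (adjusted p = 0.56), with 8381 to 10346 CPM on CD and 6395 to 10383 CPM on WD.

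Plasminogen was lower on WD in 3 strains. Plg fell by 0.37 in PWK/PhJ (SE 0.088, adjusted p = 0.00057), by 0.30 in 129S1/SvImJ (adjusted p = 0.0056) and by 0.24 in C57BL/6J (adjusted p = 0.015). In 129S1/SvImJ it ran from 2851 through 3125 to 3272 CPM on CD and from 2363 through 2530 to 2692 CPM on WD, without overlap. In CAST/EiJ the groups did not overlap either, at 3065 to 4024 CPM on CD and 2694 to 3029 CPM on WD, while the test did not pass (-0.17, adjusted p = 0.14). The gap between groups and the test gave different answers for this gene. Over all 63 pairs, 19 had groups without overlap, with 6 of 9 genes in PWK/PhJ, 5 in 129S1/SvImJ, 2 each in DBA/2J, A/J, WSB/EiJ and CAST/EiJ and 0 in C57BL/6J, where 1.78% of all genes did. All but F9 in DBA/2J were lower on WD, which held without overlap for 6.02% of all genes in PWK/PhJ, 7.18% in 129S1/SvImJ, 2.6% in DBA/2J, 3.94% in A/J, 1.86% in WSB/EiJ, 1.28% in CAST/EiJ and 0.973% in C57BL/6J.

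The share of gene reads on the 9 genes together was also compared in each strain with a two-sided exact permutation test, adjusted over 7 strains. It dropped by 0.54 percentage points in PWK/PhJ, from 2.31% ± 0.23 (SD, n = 6) to 1.77% ± 0.099 (SD, n = 7) (exact permutation p = 0.00058, the smallest this design allows, adjusted p = 0.0041). It dropped by 0.40 points in 129S1/SvImJ, from 2.18% ± 0.22 (SD, n = 7) to 1.78% ± 0.12 (SD, n = 6) (exact permutation, adjusted p = 0.010). The differences were -0.47 points in A/J (exact permutation, adjusted p = 0.061), -0.37 in C57BL/6J (adjusted p = 0.080), -0.27 in DBA/2J (adjusted p = 0.19), -0.23 in WSB/EiJ (adjusted p = 0.83) and -0.088 in CAST/EiJ (adjusted p = 0.83). The share weighs each gene by its reads, and the fibrinogen chains made up most of it (1.57 of 2.31 percentage points in PWK/PhJ on CD).

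Strain accounted for more of the variation in level than diet did for each of the 9 genes. Levels differed between strains on CD and on WD for all 9 (F tests, adjusted p between 8.7e-42 and 7.7e-05), as they did for 93.7% and 93.9% of all genes. Strain accounted for 77.7% to 78.7% of the sum of squares of log2 CPM for F9, F11, Serpinc1 and Plg, 65.2% for F7, 62.9% for F2 and 38.2% to 47.1% for the fibrinogen chains, against a median of 54.8% over all genes. Diet accounted for 24.2% for F2, 14.2% to 16.4% for Serpinc1 and the fibrinogen chains, 10.4% for F7, 7.90% for Plg, 4.87% for F11 and 2.04% for F9, against a median of 2.30%. The share of the sum of squares between mice of a group was smallest for Serpinc1 (3.91%) and F2 (10.6%). It was largest for the fibrinogen chains (36.0% to 41.9%). The SD of log2 CPM within groups was 0.088 for F2 and 0.091 for Serpinc1, against 0.31 to 0.32 for the fibrinogen chains and a median of 0.29 over all genes.

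**Figure D3:**
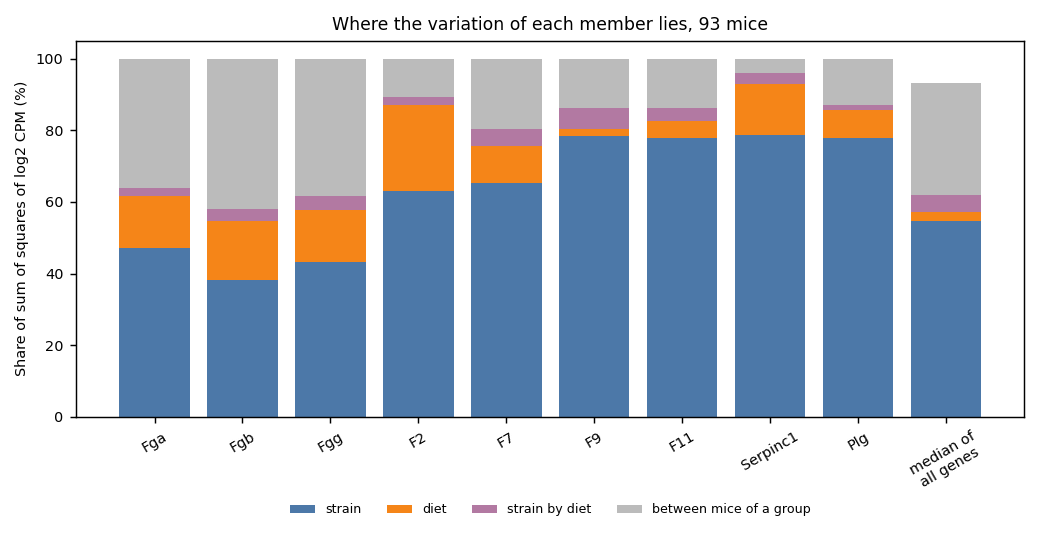
Share of the sum of squares of log2 CPM over 93 mice, in percent, that lies between strains, between diets, in their interaction and between mice of a group, for each gene and as medians over all genes tested (4 separate medians, so that the last bar does not reach the full height). Grey makes up 3.91% of Serpinc1 and 41.9% of Fgb.

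C57BL/6J had the lowest level of 5 of the 9 genes on CD (F2, F7, F9, F11 and Plg). Strain and cohort cannot be told apart for strains that shared no cohort, among them WSB/EiJ and every other strain (its cohorts 6 and 7 held no other) and DBA/2J and C57BL/6J. PWK/PhJ came from cohorts 1 and 2 as C57BL/6J did, and within these the 5 genes were each lower in C57BL/6J, with log2 differences between PWK/PhJ and C57BL/6J of 0.35 and 0.25 for F2, 1.14 and 0.84 for F7, 0.73 and 0.74 for F9, 0.99 and 1.24 for F11 and 0.66 and 0.57 for Plg. Each of these passed, where 45.5% and 47.9% of all genes did, in contrasts added after the data were seen. A/J was higher than C57BL/6J within cohort 2 by 0.50 for F2, 0.68 for F7, 0.34 for F9, 1.46 for F11 and 0.90 for Plg. Each passed, as did 19.4% of all genes. The 1 CAST/EiJ mouse of cohort 1 was higher by 0.035 for F2, 1.29 for F7, 0.60 for F9, 0.90 for F11 and 0.76 for Plg. Over all cohorts the F2 step from CAST/EiJ to C57BL/6J did not pass (0.048, adjusted p = 0.38). F11 was lowest in C57BL/6J, at 49.6 CPM ± 9.2 (SD, n = 8), and highest in DBA/2J, at 143 CPM ± 8.7 (SD, n = 6), a 2.93-fold difference on CD (adjusted p = 4.3e-18) and a 3.28-fold one on WD. The order of F11 on CD was DBA/2J, 129S1/SvImJ, A/J, PWK/PhJ, CAST/EiJ, WSB/EiJ and C57BL/6J. Among neighbours in this order PWK/PhJ differed from CAST/EiJ and WSB/EiJ from C57BL/6J, while the other neighbours did not pass. Within cohort 1, with 1 CAST/EiJ mouse, PWK/PhJ minus CAST/EiJ was 0.088 for F11 (log2), against 0.40 over all cohorts. F7 was highest in CAST/EiJ, at 125 CPM ± 18 (SD, n = 7), and lowest in C57BL/6J, at 61.6 CPM ± 16 (SD, n = 8), which is 2.07-fold on CD and 2.36-fold on WD. From CAST/EiJ the order of F7 went down through PWK/PhJ, WSB/EiJ, A/J, 129S1/SvImJ and DBA/2J, and only the step from DBA/2J to C57BL/6J passed.

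WSB/EiJ had the highest mean level on CD of the 7 genes other than F7 and F11. For Fga the median was higher in DBA/2J (9829.1 CPM) than in WSB/EiJ (9085.5 CPM). Plg stood at 4337 CPM ± 172 (SD, n = 6) in WSB/EiJ and at 2052 CPM ± 343 (SD, n = 8) in C57BL/6J (2.14-fold, adjusted p = 1.01e-19), and the order between them was A/J, DBA/2J, CAST/EiJ, 129S1/SvImJ and PWK/PhJ, with the last step to C57BL/6J the only one to pass. Serpinc1 fell from 3592 CPM ± 79 (SD, n = 6) in WSB/EiJ through A/J, 129S1/SvImJ, CAST/EiJ, C57BL/6J and DBA/2J to 1862 CPM ± 53 (SD, n = 6) in PWK/PhJ (1.93-fold), and each of the first 4 steps in this order passed. Within cohort 3, Serpinc1 in 129S1/SvImJ minus A/J was -0.14 on the log2 scale (limma-voom, adjusted p = 0.23), where 14% of all genes passed. There CAST/EiJ minus 129S1/SvImJ was -0.20 (adjusted p = 0.052), where 37.2% passed. Within cohort 1, with 1 CAST/EiJ mouse, CAST/EiJ minus C57BL/6J was 0.21. Over all cohorts these differences were -0.18, -0.16 and 0.24. On WD the Serpinc1 difference between WSB/EiJ and PWK/PhJ was 2.64-fold. F2 ran from 2393 CPM ± 78 (SD, n = 6) in WSB/EiJ to 1522 CPM ± 149 (SD, n = 8) in C57BL/6J (1.58-fold), by way of A/J, 129S1/SvImJ, PWK/PhJ, DBA/2J and CAST/EiJ, and the steps from WSB/EiJ to A/J and from DBA/2J to CAST/EiJ passed. F9 ran from 334 CPM ± 11 (SD, n = 6) in WSB/EiJ to 194 CPM ± 20 (SD, n = 8) in C57BL/6J (1.73-fold). The order between them was PWK/PhJ, CAST/EiJ, DBA/2J, A/J and 129S1/SvImJ. The 3 steps that passed were PWK/PhJ to CAST/EiJ, CAST/EiJ to DBA/2J and 129S1/SvImJ to C57BL/6J. Within cohort 1, with 1 CAST/EiJ mouse, PWK/PhJ minus CAST/EiJ was 0.13 for F9 (log2), against 0.16 over all cohorts. Within cohort 4, where 48.7% of all genes passed, CAST/EiJ minus DBA/2J passed for F9 (0.21, limma-voom, adjusted p = 0.025). For F2 it did not pass there (-0.10, adjusted p = 0.22).

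Fibrinogen levels on CD differed between the ends of the order, while no step between neighbours passed. Fga ran from 9786 CPM ± 2022 (SD, n = 6) in WSB/EiJ and 9529 CPM ± 902 (SD, n = 6) in DBA/2J through A/J, PWK/PhJ, C57BL/6J and 129S1/SvImJ to 5594 CPM ± 2272 (SD, n = 7) in CAST/EiJ, which is 1.82-fold (adjusted p = 1.6e-05). Fgb had the same order and a 1.71-fold range, and Fgg ranged 1.79-fold from WSB/EiJ to 129S1/SvImJ. Of the 21 pairs of strains on CD, 7 to 9 passed for the fibrinogen chains, 11 for F7, 15 for F11 and Plg, 17 for F2, 18 for F9 and 19 for Serpinc1, with a median of 11 over all genes tested. Over the 21 pairs together, 48.0% of all tests of a gene in a pair passed, from 23.4% between A/J and 129S1/SvImJ to 65.9% between C57BL/6J and CAST/EiJ.

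The fibrinogen chains varied from mouse to mouse as 1 unit. After the group means were taken out, Fga, Fgb and Fgg correlated at r = 0.980 to 0.984 over 93 mice, which share library and scaling within a mouse. The log2 ratio of Fga to Fgb reads had group means of 0.24 to 0.48 and that of Fgg to Fgb of -0.61 to -0.42, with SDs of 0.03 to 0.096 between mice. None of the 14 comparisons of a ratio between WD and CD passed (exact permutation test, smallest adjusted p = 0.65). Outside the 9 genes, the transcript that deviated most like each chain was Itih4, an acute phase inter-alpha-trypsin inhibitor chain, at r = 0.85 to 0.88, followed by Itih3, another chain of that family, at 0.81 to 0.83. The third was Fn1 (fibronectin) for Fga, at 0.78, and Serpina10 (protein Z-dependent inhibitor) for Fgb and Fgg, at 0.81 and 0.79.

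Plg deviated like several of the other genes. It correlated with F7 at r = 0.89, with F2 at 0.81 and with the fibrinogen chains at 0.70 to 0.72, while F2 correlated with F7 at 0.75 and with Serpinc1 at 0.70, all over 93 mice. F10, a vitamin K-dependent protease that cuts prothrombin, was among the 3 most like transcripts of F7 (0.84, after Slc31a1, a copper transporter, at 0.84 and before Proz, protein Z, at 0.82) and of Plg (0.83, after Cpn2 at 0.85 and Tfr2, a transferrin receptor, at 0.84). For F2 the nearest were Col18a1, Tfr2 and Hgfac (0.77 to 0.79). For Serpinc1 they were Proc (protein C), 1300017J02Rik and Apoh (0.78 to 0.80), for F11 Serpinf2 (the plasmin inhibitor), Serpind1 (heparin cofactor II) and Gm8893 (0.64 to 0.69), and for F9 Cd302, Ak3 and Lamp2 (0.67 to 0.71).

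A few single mice carried much of the spread in fibrinogen. One WSB/EiJ mouse on WD (replicate 4) had 17027 CPM of Fga, where the other 5 mice of its group had 5239 to 6996 CPM, and it had 10892 CPM of Saa1, the acute phase gene serum amyloid A, where the median of the others was 128 CPM. A WSB/EiJ mouse on CD (replicate 3) had 13648 CPM of Fga and 2242 CPM of Saa1 (median of the others 100.1), and a CAST/EiJ mouse on CD (replicate 4) had 10631 CPM of Fga and 356 CPM of Saa1 (median of the others 5.16). Deviations of Fga and Saa1 correlated at r = 0.74 over 93 mice and at 0.55 over the 90 mice other than these 3. For Serpinc1 and Saa1 the correlation was -0.075, and for Serpinc1 and Lcn2, another acute phase gene, it was -0.42. For Fga and Lcn2 it was 0.47 over 93 mice and 0.15 without the 3 mice.

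**Figure D4:**
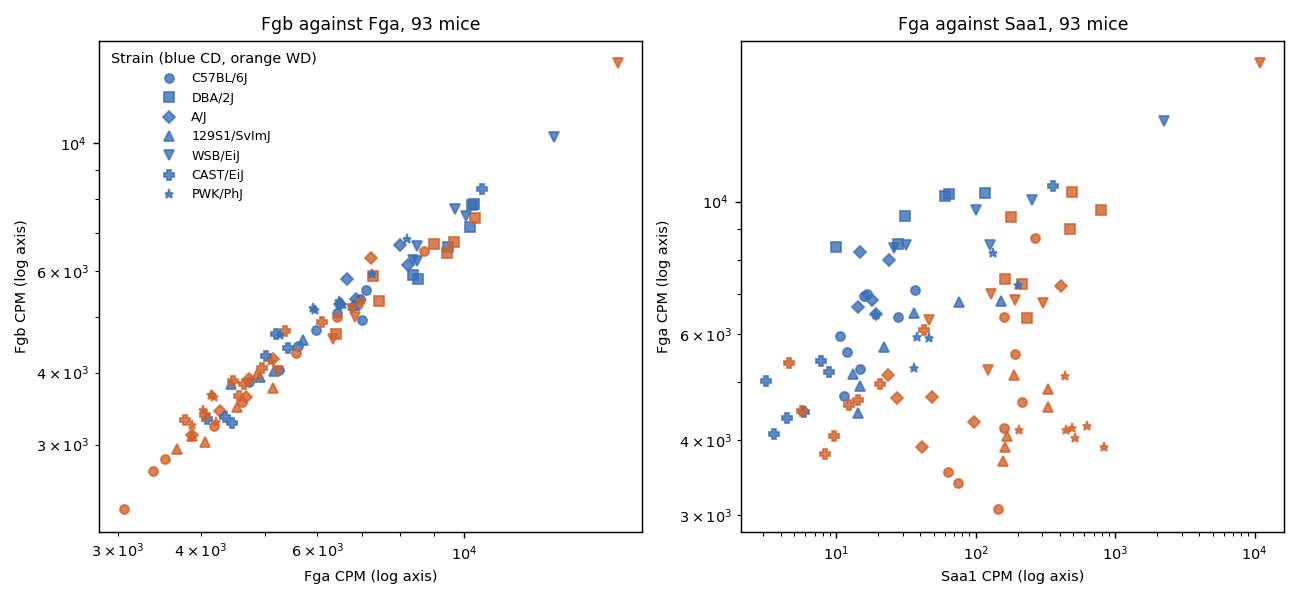
Fgb against Fga and Fga against Saa1, in CPM on log axes, with 1 point for each of 93 mice (symbol for strain, blue CD, orange WD). Fgb rises with Fga across strains and diets. The mean log2 ratio of Fga to Fgb on CD was 0.24 in PWK/PhJ and 0.48 in DBA/2J, and strains were not compared in it. The 2 WSB/EiJ mice at 13648 and 17027 CPM of Fga are also the highest in Saa1.

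Leaving out these mice, a choice made after their values were seen, changed the WSB/EiJ result. The mice were picked for high Fga, with which Fgb and Fgg deviate. The values without them are therefore descriptions, and their p-values are no valid test of these genes. Without the 3 mice the Fga diet effect in WSB/EiJ went from -0.36 (adjusted p = 0.24) to -0.50 (adjusted p = 0.033), that of Fgb from -0.36 to -0.53 (adjusted p = 0.020) and that of Fgg from -0.33 to -0.48 (adjusted p = 0.036). The number of genes lower in WSB/EiJ then rose from 2 to 5, where 3.81% of all genes were lower, and it was also 5 without the WD mouse alone, where 4.02% were. In CAST/EiJ the Fga estimate went from -0.17 to -0.0073, and those of Fgb, Fgg and F11 turned to 0.035, 0.013 and 0.027, none of which passed. All groups share 1 estimate of spread, so removing mice of WSB/EiJ and CAST/EiJ lowered the spread used for other strains, whose estimates kept their size. Fga (adjusted p = 0.017), Fgb (adjusted p = 0.014) and Fgg (adjusted p = 0.035) then also passed in C57BL/6J, where 8 of the 9 and 26.6% of all genes did. The C57BL/6J mice themselves were the same, with an SD of 1902 CPM of Fga on WD (n = 8). With this strain fitted alone on all its mice, 1 of the 9 genes passed, as did 13.4% of all genes. Without the 3 mice the size of the diet effect differed between strains for 7 genes, with Fgb (adjusted p = 0.035), Fgg (adjusted p = 0.032) and F2 (adjusted p = 0.030) joining the 4, and 40% of all genes passed. The share of reads on the 9 genes in WSB/EiJ then differed by -0.57 points (exact permutation test, adjusted p = 0.019).

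The diet effects in C57BL/6J were also taken within its 2 cohorts. In cohort 1 the 5 WD mice had 3064 to 4627 CPM of Fga against 4734 to 6956 CPM in the 3 CD mice, without overlap (log2 fold change -0.68, adjusted p = 0.019, where 21.4% of all genes passed). In cohort 2 the 3 WD mice had 5564 to 8705 CPM against 5257 to 7119 CPM in the 5 CD mice (0.14, adjusted p = 0.76). The difference between the cohorts in the diet effect passed for Fgg (0.95, adjusted p = 0.044) and F11 (0.86, adjusted p = 0.013) and did not for Fgb (0.85, adjusted p = 0.093) and Fga (0.82, adjusted p = 0.10), where 6.09% of all genes passed. Serpinc1 was lower in both cohorts, by 0.49 (adjusted p = 1.4e-07) and by 0.23 (adjusted p = 0.011), and F9 was higher in both, by 0.22 (adjusted p = 0.028) and 0.29 (adjusted p = 0.0054). The calls of F7 and Plg in C57BL/6J were lost with cohort in the model (adjusted p = 0.15 and 0.094). F7 in C57BL/6J was at -0.26 (adjusted p = 0.20) and -0.13 (adjusted p = 0.64) within the cohorts, and Plg at -0.31 (adjusted p = 0.028) and -0.019 (adjusted p = 0.94). Over the 15 combinations of a strain and 1 of its cohorts, F2, F7, Serpinc1 and Plg were lower on WD in all 15, with 9, 3, 9 and 4 of these passing, the fibrinogen chains in 14, F11 in 12 and F9 in 6. CAST/EiJ cohort 1 had 1 CD mouse, assumed to vary like the other groups, and none of the 9 genes passed there. Within cohorts of 1 to 5 mice a diet, the share of all genes that passed in cohorts of A/J was 6.25% and 0.215%, in those of C57BL/6J 21.4% and 13.9%, in those of DBA/2J 11.5% and 6.57%, and otherwise 8.75% and 20.3% in 129S1/SvImJ, 4.79% and 3.21% in WSB/EiJ, 0.22%, 0.335% and 18.4% in CAST/EiJ and 16.4% and 17.9% in PWK/PhJ.

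**Figure D5:**
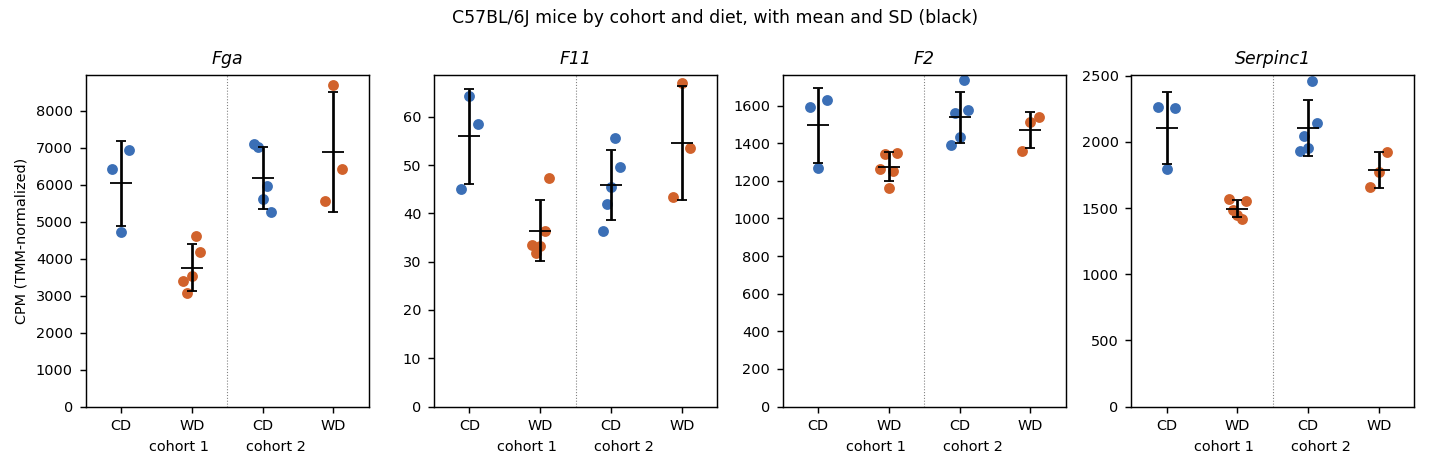
Levels of Fga, F11, F2 and Serpinc1 in CPM (axes from 0) in the 16 C57BL/6J mice by cohort and diet, with mean and SD in black. In cohort 1 the WD mice have less Fga than every CD mouse, while in cohort 2 the WD range of Fga reaches above the CD range, and Serpinc1 is lower on WD in both.

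The rest of the clotting system was described with a list of 33 other genes, all of them measured. On WD, PWK/PhJ had 11 lower and 7 higher, 129S1/SvImJ 7 lower and 9 higher, C57BL/6J 4 lower and 9 higher, A/J 6 lower and 2 higher, WSB/EiJ 4 lower and 3 higher, CAST/EiJ 4 lower and 2 higher, and DBA/2J 1 of each, where 26.2% of all genes passed in either direction in C57BL/6J, 29.6% in PWK/PhJ, 28.0% in 129S1/SvImJ, 9.03% in A/J, 8.94% in WSB/EiJ, 19.5% in CAST/EiJ and 18.0% in DBA/2J. The median log2 fold change of the list lay between -0.11 in A/J and -0.019 in CAST/EiJ. Of 7 other procoagulants, 5 were lower in PWK/PhJ, where 14.5% of all genes were, and 4 in 129S1/SvImJ (13.6%). In C57BL/6J (11.9%), A/J (4.64%), WSB/EiJ (3.97%) and CAST/EiJ (9.73%) 3 were lower, and in DBA/2J 1 (7.77%). None was higher in any strain, where 4.39% to 15.1% of all genes were. Kng1 (kininogen) was lower in 6 strains (-0.59 in PWK/PhJ, -0.48 in WSB/EiJ, -0.41 in CAST/EiJ), F10 in 6 (-0.49 in PWK/PhJ, -0.40 in C57BL/6J) and Klkb1 (prekallikrein) in 4 (-0.65 in PWK/PhJ), while F5 and F13b passed in none. Reads of Kng1 can be shared with its near copy Kng2, and exons of Klkb1 overlap another gene model on the same strand. Among the anticoagulants, Pros1 (protein S) was higher in 3 strains (0.54 in PWK/PhJ, 0.47 in WSB/EiJ, 0.36 in 129S1/SvImJ), Serpind1 was lower in 3 (-0.29 in A/J) and Proc was lower in 2 (-0.36 in PWK/PhJ).

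Genes of the enzymes that activate plasminogen moved against Plg itself in 3 strains. Plat and Plau, the tissue-type and urokinase-type plasminogen activators, were each higher on WD in PWK/PhJ, C57BL/6J and 129S1/SvImJ. In PWK/PhJ the log2 fold changes were 2.37 for Plat (SE 0.47) and 2.08 for Plau (SE 0.30), beside -0.37 for Plg. Both activator transcripts were scarce there. Group means on CD and WD were 0.43 and 2.39 CPM for Plat and 0.83 and 3.29 CPM for Plau, against 3073 and 2384 CPM for Plg. In C57BL/6J the Plat means were 2.26 CPM on CD and 3.16 CPM on WD, beside a fitted log2 fold change of 1.39. Vwf, the endothelial and platelet adhesion protein, was higher in all 7 strains (0.36 in C57BL/6J to 0.86 in PWK/PhJ), F13a1, the fibrin cross-linking enzyme of macrophages and platelets, in 3 (2.87 in PWK/PhJ) and Procr, the endothelial protein C receptor, in 2. F13a1 was also scarce, with means of 0.48 CPM on CD and 3.65 CPM on WD in PWK/PhJ. Of the vitamin K and secretion genes, Mcfd2 was lower in 3 strains (-0.30 in CAST/EiJ), Vkorc1, the vitamin K reductase whose exons also overlap another gene model, in PWK/PhJ (-0.58) and Ggcx, the carboxylase, was higher in CAST/EiJ (0.27).

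Markers of other cells and of inflammation were measured beside these changes. Of all genes, 14.5% were higher on WD in 129S1/SvImJ, 14.3% in C57BL/6J, 15.1% in PWK/PhJ and 10.2% in DBA/2J. In CAST/EiJ 9.77% were higher, in WSB/EiJ 4.97% and in A/J 4.39%. Lower on WD were 13.6% in 129S1/SvImJ, 11.9% in C57BL/6J, 14.5% in PWK/PhJ and 7.77% in DBA/2J. In CAST/EiJ 9.73% were lower, in WSB/EiJ 3.97% and in A/J 4.64%. Of 9 leukocyte markers, 7 were higher on WD in 129S1/SvImJ, 4 in C57BL/6J, 4 in PWK/PhJ, 1 in WSB/EiJ and 0 in DBA/2J, A/J and CAST/EiJ. Of 7 stellate cell markers, C57BL/6J had 4 that were higher, 129S1/SvImJ and PWK/PhJ 3 each, A/J 2 and the other strains 0. In PWK/PhJ the summed leukocyte markers went from 9.86 to 28.8 CPM on CD to 29.0 to 44.4 CPM on WD, and the summed hepatocyte markers from 152450 to 180330 CPM to 98522 to 133430 CPM. Of 6 Kupffer cell markers, 3 were higher in 129S1/SvImJ, 2 in C57BL/6J, 2 in PWK/PhJ and 1 in CAST/EiJ. Of 5 cholangiocyte markers, 4 were higher in PWK/PhJ and 1 each in C57BL/6J, 129S1/SvImJ and CAST/EiJ, and 1 was lower in DBA/2J. Of 6 endothelial markers, 2 were higher and 2 lower in C57BL/6J, 2 higher in 129S1/SvImJ, 2 lower in DBA/2J, 1 lower in WSB/EiJ and 1 each way in PWK/PhJ. Platelet markers summed to at most 7.24 CPM in any mouse, with Gp9, Gp1bb and Gp6 below the filter, and of the 3 tested 1 was higher and 1 lower in C57BL/6J, 1 lower in DBA/2J and 1 higher in 129S1/SvImJ. The part of these cell types in the results was not tested.

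Fibrinogen is an acute phase protein, and a list of 17 genes was measured beside it. The list held acute phase genes other than the 3 chains, and the interleukin-6 signalling genes Stat3, Socs3 and Il6ra. Of these genes, 9 were higher on WD in C57BL/6J, where 14.3% of all genes were, 7 in PWK/PhJ (15.1%) and 6 in DBA/2J (10.2%). In 129S1/SvImJ 6 were higher (14.5%), in WSB/EiJ 3 (4.97%) and in A/J 1 (4.39%). In CAST/EiJ 2 were lower, as were 9.73% of all genes. In PWK/PhJ, Saa1 was higher by 3.06 on the log2 scale and Lcn2 by 4.71, beside -0.60 for Fga. The 10 genes of the list that did not pass in that strain went both ways. Apcs was at -0.78 (adjusted p = 0.075) and Itih4, the transcript most like each chain, at -0.33 (adjusted p = 0.12). Stat3 was at -0.25 and Fgl1 at -0.14. Hp was at 0.44 (adjusted p = 0.051), Hpx at 0.38, Serpina3n at 0.37, Socs3 at 0.091, Lbp at 0.046 and Il6ra at 0.0068. Of 9 liver transcription factors, 4 were lower and 3 higher in 129S1/SvImJ, where 28% of all genes passed in either direction. In DBA/2J 3 were lower (18%), in A/J 2 (9.03%), in CAST/EiJ 2 (19.5%) and in WSB/EiJ 1 (8.94%). In C57BL/6J 1 passed each way (26.2%), and in PWK/PhJ none passed (29.6%) (limma-voom, adjusted p below 0.05).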

How the data were processed

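Livers of 93 male mice (7 strains, 2 diets, 14 groups of 5 to 8) were measured by bulk RNA sequencing. The authors prepared libraries with a SMARTER kit, sequenced them on a BGISEQ-500, checked reads with FastQC, mapped all strains to the C57BL/6J genome (STAR 2.7.1a and the build GRCm38, also named mm10, in the submitters' processing notes) and deposited raw counts of reads per gene. Whether counting used the strand, and the annotation release, are not given in the sources used here. Of 53465 genes, 53274 were paired with a symbol, and every sample column was used. Groups and cohorts came from the sample labels. Replicates were separate mice, and the labels give the cohort of each and not its cage. No libraries were identical, and the lowest chi-square per gene over 268 pairs within groups was 19.0.

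Genes with enough reads for the smallest group (edgeR filter, minimum count 10) numbered 19110. Counts were scaled by TMM (edgeR 4.0.16) and fitted with limma-voom (limma 3.58.1, R 4.3.3) as in the study's methods, which name no design formula. The 14 group means were fitted together, and p-values were adjusted by Benjamini-Hochberg over all 19110 genes in each contrast, with 0.05 as the threshold. F tests compared diet effects and levels between strains. Two-sided exact permutation tests (Python 3.11.15, NumPy 2.4.6, pandas 2.3.3) compared the share of reads on the 9 genes, adjusted over 7 strains, and the log2 ratios of fibrinogen chains, adjusted over 14 tests. Variance shares and correlations used log2 CPM with a prior count of 2, and correlations are descriptions with no test. Levels between genes were divided by the length of the principal transcript.

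On simulated counts for PWK/PhJ with 200 genes changed 2-fold among 19110, limma-voom recovered 140, where 143 were predicted from the noise of each gene, with all 120 of the less noisy genes recovered and 3 false calls. An initial requirement of more recovered genes than this was not met and was replaced by that prediction. The prediction used the same noise that the counts were drawn with, so it is no independent check. Changes smaller than 2-fold were not simulated.

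The 9 genes and all lists were chosen with earlier results of these data known. Named beside them were, for each role in the list of other coagulation genes, up to 3 genes passing in the most strains with the largest changes, the 3 transcripts most like each of the 9, and markers whose value stands beside a result. 1 gene that this rule names is not reported here. Alternatives were edgeR's quasi-likelihood test, DESeq2 1.42.0, upper-quartile scaling, other filters, cohort or RNA integrity as a term, separate fits per strain, sample weights and leaving out each A/J mouse in turn. Leaving out the 3 mice that stood apart in Fga, and contrasts of diets or strains within cohorts, were added after the data were seen. Promoters were taken from RefSeq on GRCm38.p6 and gene coordinates from GENCODE on GRCm38.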

Additional observations from a re-analysis of the deposited data

Results flagged for a closer look

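Of 126 groups of a gene, strain and diet, 19 held a mouse whose gap to the nearest other was larger than Dixon's test allows at 95%, where chance flags about 5%. These values came from 8 mice, and 18 of them were the highest of their group. The WSB/EiJ mouse on WD, replicate 4, had 17027 CPM of Fga, 13779 of Fgb, 9697.5 of Fgg, 137.42 of F7, 422.29 of F9 and 5569.9 of Plg, and its Saa1 was 10892 CPM. The CAST/EiJ mouse on CD, replicate 4, had 10631 CPM of Fga, 8340.7 of Fgb, 6017.1 of Fgg, 161.35 of F7 and 4023.7 of Plg. The WSB/EiJ mouse on CD, replicate 3, had 13648 CPM of Fga, 10236 of Fgb and 7196.9 of Fgg. These 3 mice were high in all fibrinogen chains, and the part of the acute phase genes that were high with them was not tested.

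The A/J mouse on WD, replicate 3, stood above its group in Fgb (6329.6 CPM), with Saa1 at 412 CPM where the median of the others was 41.3 CPM. The PWK/PhJ mouse on WD, replicate 7, stood above its group in Fga (5114.3 CPM), with Saa1 at 435 CPM against a median of 502 CPM in the others. F11 was high in A/J on CD, replicate 2 (137.98 CPM), and in WSB/EiJ on CD, replicate 5 (106.14 CPM). F9 was low in A/J on CD, replicate 3 (229.63 CPM).

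The diet effect differed between strains by the F test for Serpinc1 (adjusted p = 3.1475e-06), F9 (adjusted p = 0.00123), F11 (adjusted p = 0.010685) and F7 (adjusted p = 0.024114). For F9 the estimates ran from -0.062 in CAST/EiJ to 0.25 in DBA/2J, and for Serpinc1 from -0.61 in PWK/PhJ to -0.12 in CAST/EiJ.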

How the results depend on the processing

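Of 63 diet effects of a gene in a strain, 50 to 62 kept their direction and their side of the threshold under each of the alternatives listed in the methods other than those that left out the 3 mice. The number of the 9 genes that passed in C57BL/6J was 5, where 26.2% of all genes passed. It became 3 when any gene with at least 1 count was tested (12.3% of all genes). With cohort in the model it was 3 (24.8%), with separate fits 1 (13.4%) and with sample quality weights 8 (30.5%). It was also 8 without the 3 mice apart in Fga (26.6%). The A/J count of 5 (9.03% of all genes) became 8 with quality weights (20.6%). It ran from 3 to 7 when 1 A/J mouse was left out (6.26% to 9.68%). The WSB/EiJ count of 2 (8.94% of all genes) became 6 with quality weights (13.5%). It was 5 without its WD replicate 4 (8.8%) and 5 without the 3 mice (8.15%). The CAST/EiJ count of 1 (19.5%) became 2 with DESeq2 (21.6%). The diet effect differed between strains for 7 genes instead of 4 without the 3 mice, where 40% instead of 37.5% of all genes passed. Of the 33 other coagulation genes, the DBA/2J count of 2 (18% of all genes) became 5 with separate fits (19.1%) and 5 with quality weights (22.6%). The A/J count of 8 became 14 with quality weights (20.6%) and ran from 3 to 9 without 1 A/J mouse (6.26% to 9.68%). The WSB/EiJ count of 7 became 4 with separate fits (7.55%). Without CAST/EiJ CD replicate 4, alone or with the other 2 mice, the CAST/EiJ estimates turned to 0.035 for Fgb, 0.013 for Fgg and 0.027 for F11, while the lowest values without any 1 mouse were -0.13, -0.14 and -0.074. F11 in PWK/PhJ turned to 0.016 with upper-quartile scaling and 0.014 with genes of at least 10 counts in every mouse. The share of reads on the 9 genes differed by -0.52 points in C57BL/6J (exact permutation test, adjusted p = 0.049) and by -0.73 in A/J (adjusted p = 0.030) when mitochondrial genes and the 10 genes with the most reads were left out of the total. Leaving out 1 A/J mouse gave -0.60 to -0.40 points. Without the 3 mice it differed by -0.57 in WSB/EiJ and by 0.11 in CAST/EiJ. Chain ratios that passed in no strain changed sign, for Fga to Fgb, in A/J (from -0.041 to 0.016 without 1 mouse) and, by medians, in WSB/EiJ (-0.012) and PWK/PhJ (-0.0087), and for Fgg to Fgb, by medians, in DBA/2J (-0.0045) and PWK/PhJ (0.021). The cause of these changes was not tested. No paired analysis was possible because the labels give no replicate numbers that groups share.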
